A study of Rattus norvegicus with 85 samples.

Results

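The brain samples described here are amygdala punches of newborn rats from the unstressed line of a transgenerational stress study, 5 of the first (F1) and 7 of the second (F2) offspring generation, 12 of the 85 samples in the series. They were chosen by their labels alone (amygdala, P0, Control, F1 or F2), and the comparison asks which RNA editing sites vary between generations when no stress was given. All were Sprague-Dawley rats killed on the day of birth. F1 pups were the offspring of control dams mated with naive males, and F2 pups were sired by adult F1 control males mated with naive females. Of the F1 samples 2 came from females and 3 from males, and of the F2 samples 1 came from a female and 6 from males. The methods describe the F2 pups as males, but also say that offspring of both sexes were pooled in every experiment. The labels give no dam or litter, so p-values measure only the spread between these samples.

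Each sample carries a library number in its title, used here as its replicate name. When the numbers are divided into consecutive sets of 48, the number of samples that a microfluidic array of the kind used takes, the F1 females (40 and 46) fall in the first set, the F1 males (56, 59 and 61) in the second, 6 F2 samples (121, 136, 138, 140, 141 and 142) in the third, and F2 sample 145 in the fourth. No set holds both generations, so a set of libraries and a generation cannot be told apart. The labels do not say which libraries were run together.

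A-to-I editing deaminates adenosine to inosine in double-stranded stretches of RNA, and inosine is read as guanosine by the ribosome and by reverse transcriptase. The enzymes are ADAR and ADARB1 (ADAR2). In brain they recode a small set of ion channels and receptors, among them the glutamate receptor subunits and the serotonin 2C receptor, and they also act on many untranslated regions. In the multiplex PCR assay used here (mmPCR-seq), cDNA around each site was amplified with specific primers, and the editing level is the percentage of reads with G at the site. The files list 179 sites on the rat genome build rn4.

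The specific parts of 3 primer pairs, written 5′ to 3′ in the order listed by the study and without their shared tails, show which transcript stretches carried the recoding sites described first. A single pair is listed for Htr2c sites A to D, which had nearly equal read counts in each sample and are not independent of each other. A single pair is also listed for Grik2 Q/R, M/V and G, but the read counts there differ between sites, as given beside their levels. No letters are in capitals, since the primers were not placed on the genome and whether one covers an edited base was not checked.
Htr2c A to D, listed first: cttagtccgcgaattgaacc
Htr2c A to D, listed second: ggggattatgtctggccttta
Grik2 Q/R, listed first: tttgggcatgagctcagaa
Grik2 Q/R, listed second: tgtcatagccaggtttagtcc
Gria3 R/G, listed first: tgccttgttcactgagtttca
Gria3 R/G, listed second: gagtcgaccatgaacgagtac

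Reads summed over the listed sites ranged from 972043 to 2789514 in F1 and from 1079467 to 2808369 in F2 (exact Mann-Whitney p = 1), with a median of 8451 reads per tested site and sample. To be tested, a site needed 50 reads or more in 3 or more samples of each side. At that minimum of 50 reads a level of 50% has a 95% Wilson interval from 36.6% to 63.4%, and intervals of this kind cover counting error only, since PCR reads without molecular identifiers are not independent molecules. In all, 148 of the 179 listed sites were tested, the 146 sites of the study and 2 further Htr2c positions at which the highest level in any sample was 0.0186%.

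None of the 148 sites differed between F1 and F2 at an FDR of 0.1 (0% called), and the smallest adjusted p was 0.236 (exact Mann-Whitney test with Benjamini-Hochberg adjustment). At an unadjusted p under 0.05 there were 23 sites, 15.5% of those tested. In 21 of them, 14.2% of those tested, the mean level was lower in F2, and in 2 it was higher. Over all tested sites the mean was lower in F2 at 96, higher at 48 and equal at 4, with a median difference of -0.0914 percentage points. The levels of the sides overlapped at every tested site (0% without overlap). When nonsynonymous sites were adjusted apart from all others, 6 sites passed an FDR of 0.1 (4.11% of the 146), all nonsynonymous and all lower in F2 (Htr2c A, B and C, Grik2 Q/R and Ccni among them, smallest adjusted p = 0.0828), and none of the 105 other sites did (smallest adjusted p = 0.354). The count of 0 also rested on F1 sample 40: without it 10 sites passed when all sites were adjusted together (smallest adjusted p = 0.0897), and leaving out any other sample gave 0. The 6 nonsynonymous sites likewise depended on single samples: the count was 0 without F1 sample 46, 56 or 61 or F2 sample 138, 140 or 142, it was 1 without F2 sample 141, 10 without F1 sample 40 and 11 without F2 sample 145. The count was also 0 with labels permuted within sex. In males only it was 0 too, but there the exact Mann-Whitney p cannot go below 0.0238 without ties. The males-only count therefore cannot show whether the 6 sites depend on sex.

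The serotonin 2C receptor (Htr2c) is a Gq-coupled receptor whose second intracellular loop is recoded by editing, and edited forms couple to the G protein less efficiently. It held the largest mean differences of the comparison. Site A (chromosome X, position 31041849, exonic, Ile to Val) was edited at 80.4%, 86.9%, 87.8%, 68.7% and 86.1% in F1 samples 40, 46, 56, 59 and 61. In F2 the level of site A ranged from 27.6% to 79.4% with a median of 60.0%. The F2 samples were spread more widely than the F1 samples, F2 sample 140 was the lowest, and 5 of the 7 F2 samples lay below every F1 sample. The means were 82.0% ± 7.97 (SD, n = 5) in F1 and 58.9% ± 16.8 (SD, n = 7) in F2, a difference of -23.1 points with an interval of the shift, of under 95% coverage here and below, from -35.1 to -8.4 (exact p = 0.0101, adjusted p = 0.236). Counting error was small beside this spread: in F2 sample 140, 2782 of 10077 reads were edited, with a Wilson interval from 26.7% to 28.5%.

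Site B (position 31041847, Ile to Met) ranked the samples in much the same order on the shared amplicon. Its levels in F1 were 72.6%, 75.9%, 76.8%, 58.3% and 76.5%, and in F2 they ranged from 22.4% to 71.9% with a median of 49.9%. The sides overlapped through F1 sample 59, the lowest of its side, and through F2 samples 121 and 145, the highest of theirs (difference -21.1 points, exact p = 0.0101, adjusted p = 0.236). Site C (position 31041842, Asn to Ser) was edited at 31.5%, 33.8%, 35.4%, 27.9% and 31.5% in F1 and at 7.8% to 30.2%, median 22.6%, in F2. Its mean difference was -9.12 points (exact p = 0.00884, adjusted p = 0.236). Site D (position 31041837, Ile to Val) had a mean of 46.6% ± 8.82 (SD, n = 5) in F1 and 39.7% ± 9.01 (SD, n = 7) in F2, and the interval of its shift, from -16.4 to 3.1 points, included 0 (exact p = 0.268). Of the 2 positions in the Htr2c 3′ UTR, the first was edited at 10.2% in F1 and 8.54% in F2 (exact p = 0.0341) and the second at 0.340% and 0.443% (exact p = 0.0265). In all, 5 of the 8 tested Htr2c positions (62.5%) had an unadjusted p under 0.05, 4 of them lower in F2, beside 15.5% of all sites tested.

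**Figure D1:**
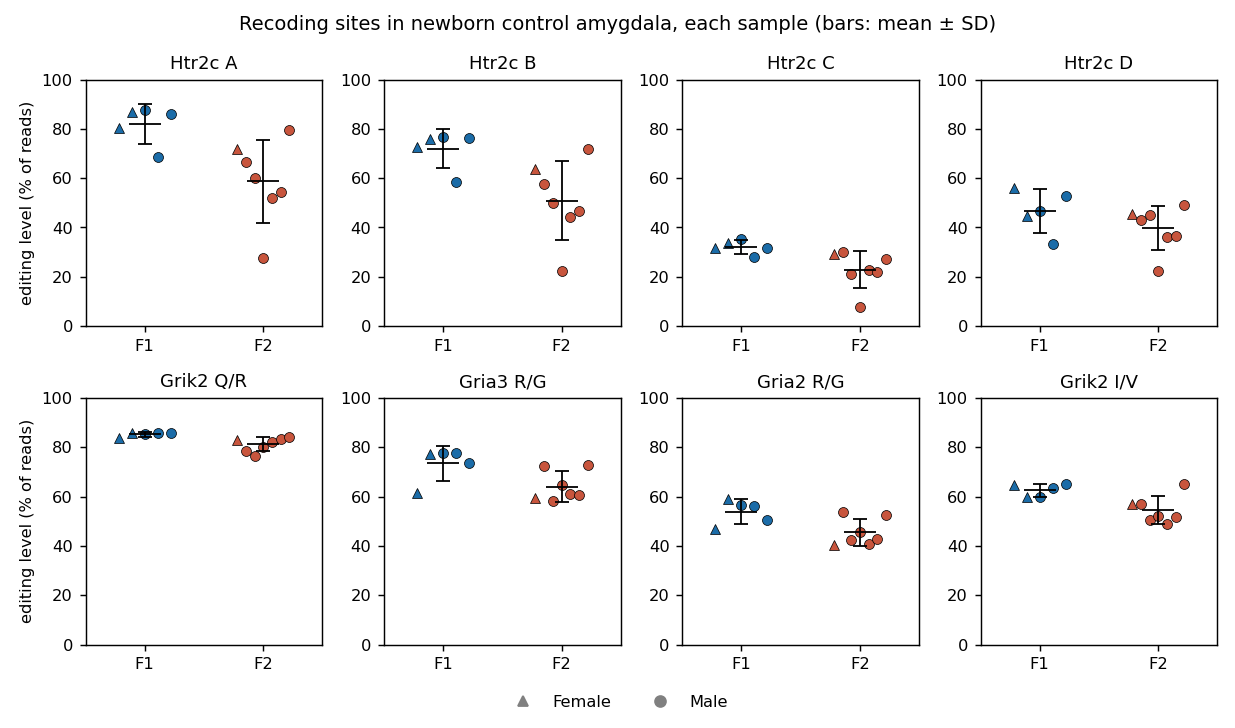
Editing level (% of reads) of 8 recoding sites in each of the 5 F1 and 7 F2 control amygdala samples, with females as triangles, males as circles and the mean ± SD in black. At Htr2c A the F2 samples run from 27.6% to 79.4% and the F1 samples from 68.7% to 87.8%, and the sides overlap at all 8 sites.

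The reads at the Htr2c A to D amplicon differed between the sides too. Htr2c A took 0.375% to 0.616% of a sample's reads in F1 and 0.679% to 0.961% in F2, with no overlap (exact p = 0.00253, adjusted p = 0.0374). That p is the smallest that an exact Mann-Whitney test of 5 samples against 7 allows without ties. The share of sites past an FDR of 0.1 in this readout was 19.6%. Whether the read share has a part in the difference in level was not tested. Reads of a multiplex PCR are not a measure of expression. Within F2 the sample with the lowest Htr2c A level, 140, also had the lowest read share of its side, 0.679%. Within F1 it was the reverse: the sample with the lowest level, 59 (68.7%), had the highest read share of its side, 0.616%.

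**Figure D2:**
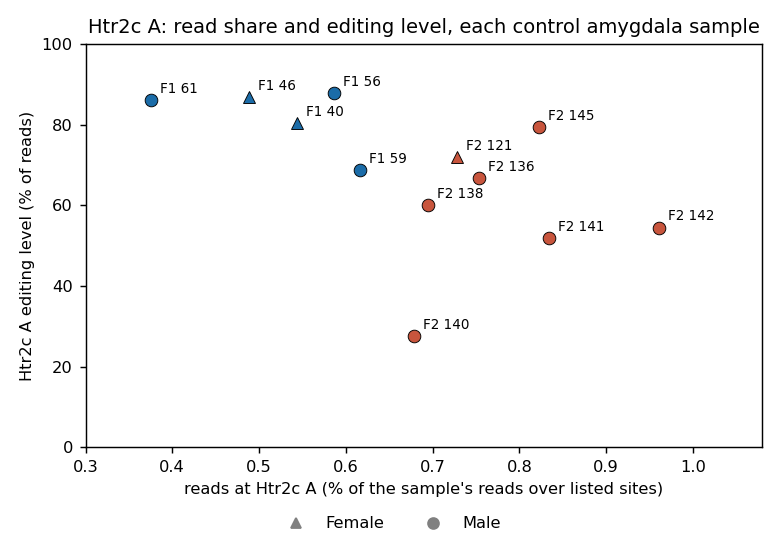
Htr2c A editing level (% of reads) against the share of the sample's reads that fall on that site (%), 1 point for each of the 12 control amygdala samples, with F1 in blue, F2 in red, females as triangles and males as circles. All 5 F1 samples lie at or below 0.616% of reads and all 7 F2 samples at or above 0.679%.

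Kainate receptors are glutamate-gated channels in which Q/R editing in the pore lowers calcium permeability. Grik2, the GluK2 subunit, had the smallest p of the comparison at its Q/R site (chromosome 20, position 53378633, Gln to Arg). In F1 this site was edited at 83.7%, 85.7%, 85.5%, 85.8% and 85.8%, a very narrow range. In F2 it was edited at 76.7% to 84.4% with a median of 82.4%. Here 6 of the 7 F2 samples lay below every F1 sample, sample 145 being the exception, and the means of 85.3% ± 0.903 (SD, n = 5) and 81.3% ± 2.82 (SD, n = 7) differed by -4.04 points (interval of the shift -7.0 to -1.4, exact p = 0.00505, adjusted p = 0.236).

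The reads at Grik2 Q/R matched the sum of the reads at the nearby G site and at the Y/C site, for which another primer pair is listed: the count at Q/R less that sum was -2.08% to 1.75% of the Q/R reads over the 12 samples. The Y/C reads came to 23.3% to 42.3% of the Q/R reads in F1. In F2 they came to 47.0% to 53.3% in 6 samples and to 15.2% in sample 145, the F2 sample with the highest Q/R level. In F1 they came to 25.6% in sample 40, which had the lowest Q/R level of its side (83.7%). They came to 42.3% and 41.9% in F1 samples 46 and 61 (Q/R at 85.7% and 85.8%), and to 23.3% and 24.8% in samples 56 and 59 (85.5% and 85.8%). Whether this makeup of the reads has a part in the Q/R difference was not tested, and Q/R, M/V, G, Y/C and I/V cannot be treated as independent of each other.

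The neighbours of Grik2 Q/R were edited at low levels. The M/V site had means of 2.72% in F1 and 2.01% in F2 (exact p = 0.0265) and the synonymous G site means of 4.22% and 3.01% (exact p = 0.0177). The I/V and Y/C sites, which share a listed primer pair, lie in the first membrane segment. I/V (position 53408971) was edited at 64.9%, 59.8%, 60.0%, 63.6% and 65.2% in F1 and at 48.8% to 65.3%, median 52.2%, in F2 (exact p = 0.0480). Y/C (position 53408958) had means of 69.3% ± 5.77 (SD, n = 5) and 68.1% ± 3.19 (SD, n = 7), with a shift between -7.6 and 4.7 points (exact p = 1.00). The Q/R site of Grik1 (chromosome 11, position 27749588), the GluK1 subunit, had means of 41.1% ± 10.8 (SD, n = 5) and 28.8% ± 7.48 (SD, n = 7) and an exact p of 0.0732. In F1 it was 22.5% in sample 40 and 41.7% to 49.2% in the other 4 samples, and 1 F2 sample had only 68 reads. Of the 7 kainate receptor sites 4 (57.1%) had an unadjusted p under 0.05, all lower in F2, beside 15.5% of all sites tested.

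AMPA receptors carry most fast excitatory transmission, and editing at their R/G site speeds recovery from desensitization. Gria3 R/G (chromosome X, position 3477800, Arg to Gly) was edited at 61.4%, 77.3%, 77.6%, 77.6% and 73.7% in F1, against 58.1% to 72.8% with a median of 61.0% in F2. Only F1 sample 40 lay among the F2 samples (difference -9.36 points, interval of the shift -17.0 to -1.3, exact p = 0.0177). Gria2 R/G (chromosome 2, position 172272247) was edited at 46.8%, 59.0%, 56.8%, 56.2% and 50.6% in F1 and at 40.4% to 53.7%, median 42.7%, in F2, and the mean difference was -8.39 points (exact p = 0.0303). Gria4 R/G (chromosome 8, position 994881) had means of 37.8% ± 5.53 (SD, n = 5) and 33.0% ± 2.63 (SD, n = 7) and did not reach an unadjusted p under 0.05 (exact p = 0.106).

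The Gria2 Q/R site (position 172288193), which sets the calcium impermeability of the receptor, was edited at 99.4% or more in all 12 samples. A synonymous position nearby, Gria2 Q, was edited at 22.3% ± 3.80 (SD, n = 5) in F1 and 17.7% ± 3.48 (SD, n = 7) in F2 (exact p = 0.0442). Gria2 L, the base next to R/G, was at 1.00% and 0.643% (exact p = 0.0227). Of the 10 AMPA receptor sites 4 (40.0%) had an unadjusted p under 0.05, all lower in F2, beside 15.5% of all sites tested. The I/M site of Gabra3 (chromosome X, position 158405626), a GABA-A receptor subunit, showed no such difference, with means of 60.3% ± 7.17 (SD, n = 5) and 61.3% ± 2.79 (SD, n = 7), a shift between -6.7 and 6.7 points and an exact p of 0.639.

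**Figure D3:**
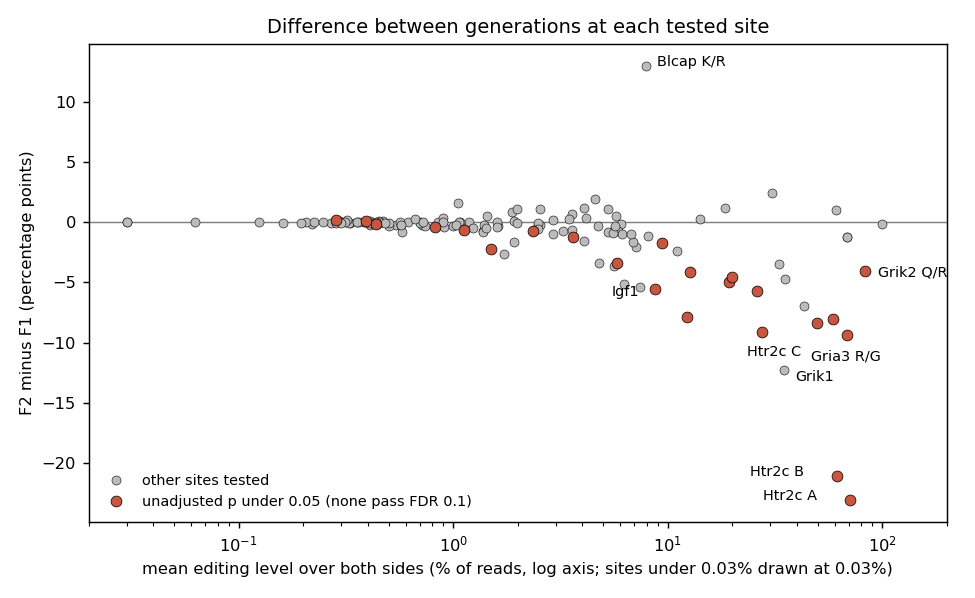
Difference in mean editing level, F2 minus F1 (percentage points), against the mean level over both sides (% of reads, log axis) for the 148 tested sites, with the 23 sites of unadjusted p under 0.05 in red. The red sites above 1% all lie below 0, Htr2c A and B lie lowest at -23.1 and -21.1, and the high point for Blcap (Lys to Arg) rests on 1 sample at 92.4%.

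Outside the receptors, the Flna site (chromosome X, position 160382329), in a filamin that crosslinks actin, had means of 5.82% ± 1.56 (SD, n = 5) and 5.49% ± 1.37 (SD, n = 7) (exact p = 0.919). Cadps, which primes dense-core vesicles for release, had means of 21.8% ± 3.42 (SD, n = 5) and 16.8% ± 2.17 (SD, n = 7) at its Glu to Gly site (chromosome 15, position 14280228, exact p = 0.0303). Its synonymous site (position 14273751) was at 1.46% and 2.31% (exact p = 0.149).

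None of the channel sites had an unadjusted p under 0.05. Kcna1 I/V (chromosome 4, position 163012291), in a voltage-gated potassium channel, was at 4.86% ± 1.15 (SD, n = 5) and 4.57% ± 0.916 (SD, n = 7), with a shift between -1.6 and 0.9 points. Kcnma1 (chromosome 15, position 322937), the BK channel, was at 2.84% and 3.00%. The 3 Cacna1d sites (chromosome 16, positions 5405832, 5405838 and 5405840), in an L-type calcium channel, were at 14.1%, 2.68% and 17.9% in F1 and 14.3%, 2.41% and 19.1% in F2 (smallest exact p = 0.249). Of the 7 channel and secretion sites, 1 (14.3%) had an unadjusted p under 0.05, the Cadps Glu to Gly site. This share is close to the 15.5% of all sites tested.

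Among the other recoded proteins, beside 15.5% of all sites tested, 1 of 11 tested sites (9.09%) had an unadjusted p under 0.05. This was Ccni (chromosome 14, position 16452369, Arg to Gly), a cyclin, edited at 0.5% in all 5 F1 samples and at 0.2% to 0.5% in F2 (exact p = 0.0126). The levels in the files are rounded, and this difference is of the size of that rounding step. Azin1 (chromosome 7, position 74162517), an antizyme inhibitor, was at 0.520% ± 0.130 (SD, n = 5) and 0.443% ± 0.127 (SD, n = 7) (exact p = 0.356). Copa (chromosome 13, position 88088487), a coat protein of transport vesicles, was at 5.88% ± 1.21 (SD, n = 5) and 5.43% ± 1.17 (SD, n = 6) (exact p = 0.931), with 1 F2 sample under 50 reads.

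In Blcap (chromosome 3), whose transcript is edited at several codons, the levels turned on single samples. At position 148267329 (Lys to Arg) F2 sample 145 was at 92.4%, with 16158 of 17480 reads edited, while the other 11 samples were at 0.3% to 3.3%. That sample had only 1317 reads at the neighbouring Gln to Arg site, 16163 fewer, a number close to that of its edited reads, so nearly all of the 92.4% rests on reads that were not counted at the neighbouring site. In the other 6 F2 samples and in F1 samples 56, 59 and 61 the reads at the Lys to Arg site differed from those at the Gln to Arg site by -2.89% to -1.63%, and in F1 samples 40 and 46 they were 71.3% and 53.6% more. At position 148267359 (Gln to Arg) F1 sample 40 was at 33.3% and the others at 1.9% to 7.1%. Neither site separated the generations (exact p = 0.254 and 0.672), and the Tyr to Cys site (position 148267368) had means of 4.68% and 5.80% (exact p = 0.452). The Lys to Arg site took a smaller share of the reads in F2, 0.260% against 0.802% (exact p = 0.0177, adjusted p = 0.0902).

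The transcript of Adarb1 is edited by its own product. Of the 4 Adarb1 sites, all annotated as 5′ UTR on chromosome 20, position 11709485 was edited at 19.5%, 12.2%, 13.3%, 16.3% and 12.5% in F1 and at 7.8% to 14.5%, median 10.6%, in F2, and 6 of the 7 F2 samples lay below every F1 sample (difference -4.15 points, interval of the shift -8.0 to -1.6, exact p = 0.0152). The adjacent base, 11709486, was at 69.5% ± 2.61 (SD, n = 5) and 68.2% ± 5.70 (SD, n = 7) (exact p = 1.00). Position 11709472 was at 34.8% and 31.3% (exact p = 0.268) and position 11709490 at 2.00% and 3.07% (exact p = 0.138). In the wider set of RNA processing and editing genes 1 of 20 tested sites (5.00%), the one at 11709485, had an unadjusted p under 0.05, beside 15.5% of all sites tested.

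Untranslated regions of other genes held most of the remaining differences. Igf1 (chromosome 7, position 24605672, 3′ UTR), a growth factor, was edited at 13.4%, 6.9%, 10.5%, 10.6% and 16.0% in F1 and at 2.9% to 10.4%, median 5.4%, in F2 (difference -5.54 points, interval of the shift -9.2 to -1.7, exact p = 0.00884, adjusted p = 0.236). Igf2 (chromosome 1, position 202908966, 3′ UTR) had means of 3.92% ± 1.06 (SD, n = 5) and 3.27% ± 0.723 (SD, n = 7) (exact p = 0.343). The Igf1 amplicon also took a larger share of reads in F2, 0.536% against 0.276% (exact p = 0.0177, adjusted p = 0.0902), and whether this has a part in its level was not tested.

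Dagla, which makes the endocannabinoid 2-arachidonoylglycerol, had a 3′ UTR site (chromosome 1, position 212734070) at 7.9%, 15.9%, 28.7%, 11.8% and 16.5% in F1 and at 4.6% to 11.2%, median 8.5%, in F2 (exact p = 0.0303). In the Ankrd28 3′ UTR on chromosome 16, 2 of 20 sites (10.0%) had an unadjusted p under 0.05, beside 15.5% of all sites tested. They were position 7168445 (7.52% and 4.13%, exact p = 0.0202) and position 7168469 (1.44% and 0.814%, exact p = 0.0177). Cdh22 (chromosome 3, position 156155246), a cadherin, had means of 2.62% and 0.386% (exact p = 0.0278), but the F1 mean rests on sample 56 at 9.5%, with the other 4 at 0.5% to 1.2%. Reads at Cdh22 were few, 78 to 607 in the F2 samples and 107 in F1 sample 40, beside a median of 8451 per tested site and sample. The 3′ UTR site in Klhl24 (chromosome 11, position 83096634) was, with the second Htr2c 3′ UTR position, 1 of the 2 sites of unadjusted p under 0.05 that were higher in F2, at 0.200% and 0.367% (exact p = 0.0433). None of the 6 Plekhd1 sites had an unadjusted p under 0.05. The sites of Dagla, Ankrd28, Cdh22, Klhl24, Ccni, Gria2 L, Gria2 Q, Grik2 G, Grik2 M/V and the Htr2c 3′ UTR were named after their values were seen.

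By annotation, 11 of 41 nonsynonymous, 3 of 16 synonymous, 8 of 74 3′ UTR and 1 of 6 5′ UTR sites had an unadjusted p under 0.05, and none of the 7 intergenic sites did, beside 15.5% of all sites tested. By level, 20 of the 89 sites edited at 1% or more on a side had such a p, all lower in F2, against 3 of the 59 sites below 1% on both sides, where the files' rounding leaves few distinct levels. Each sample was also placed against the other side at the 21 sites lower in F2. F2 samples 138, 140, 141 and 142 lay below every F1 sample at 16 to 17 of them, samples 121 and 136 at 12 and 10, and sample 145 at 6. Among the F1 samples, sample 40 lay above every F2 sample at 7 of the 21 sites and the other 4 at 13 to 15. These sites were chosen by their difference, so the counts describe which samples carry it and test nothing.

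Averaged over the 131 sites with at least 50 reads in all 12 samples, the editing level of a sample was 9.69%, 9.91%, 10.3%, 9.55% and 10.4% in F1 and ranged from 7.58% (sample 140) to 10.3% (sample 145) in F2. All F2 samples except 145 lay below every F1 sample. The means were 9.98% ± 0.393 (SD, n = 5) and 8.66% ± 0.906 (SD, n = 7), a difference of -1.32 points (exact permutation p = 0.0177). The difference was -2.95 points over nonsynonymous sites (24.3% and 21.4%, exact permutation p = 0.0391), -0.611 points over 3′ UTR sites (2.81% and 2.20%, exact permutation p = 0.00758) and -0.592 points over synonymous sites (2.48% and 1.89%, exact permutation p = 0.00505). With Htr2c A to D left out, the means were 8.47% and 7.58% (exact permutation p = 0.0227). The level of sample 145 includes its 92.4% at Blcap: with the Blcap sites left out, sample 145 was at 9.69%, within the F1 range of 9.62% to 10.6%, and the difference was -1.42 points over all sites (exact permutation p = 0.00505) and -3.44 points over nonsynonymous sites (exact permutation p = 0.00884), a setting chosen after seeing the data. In the 9 male samples alone the difference was -1.47 points, and the p rose to 0.0595 (exact permutation test, 3 against 6).

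**Figure D4:**
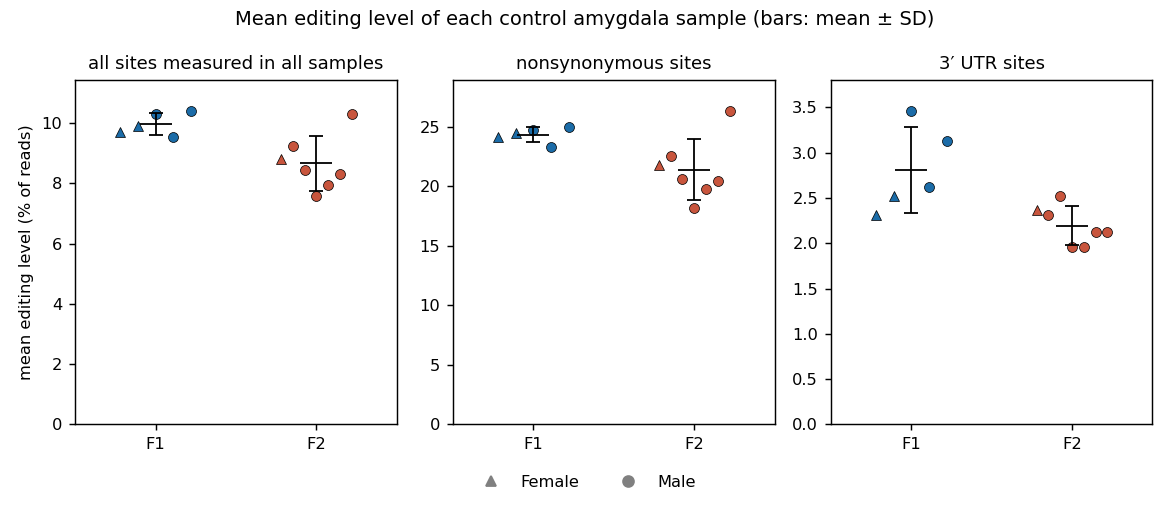
Mean editing level (% of reads) of each control amygdala sample over the 131 sites measured in all 12 samples, over the nonsynonymous ones and over the 3′ UTR ones, with females as triangles, males as circles and the mean ± SD in black. Over all sites 6 of the 7 F2 samples lie below the lowest F1 sample at 9.55%, and F2 sample 145 lies at 10.3%.

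The same generations were compared in other samples: newborn control prefrontal cortex (5 F1 and 7 F2) and newborn amygdala of the stressed line (PRS, whose founding dams went through stress before mating, 6 F1 and 6 F2). They share no sample with the control amygdala, but the labels do not say which samples came from the same animal, and their library numbers fall in the same sets of 48. In control prefrontal cortex 0 of 144 tested sites passed an FDR of 0.1 (0% called, smallest adjusted p = 0.424) and 12 (8.33%) had an unadjusted p under 0.05, all lower in F2 (exact Mann-Whitney test). Without 1 prefrontal F2 sample that had under 50 reads at 35.6% of the 146 sites, there were 14, of which 12 were lower and 2 higher in F2. In PRS amygdala 0 of 148 passed (0% called, smallest adjusted p = 0.320) and 7 (4.73%) had an unadjusted p under 0.05, all higher in F2. Of the 21 sites lower in F2 control amygdala, 20 were lower in F2 prefrontal cortex, 6 of them at an unadjusted p under 0.05, beside 92 of all 144 sites that were lower there. In PRS amygdala 7 of the 21 were lower in F2 and 14 higher, 3 of the latter at an unadjusted p under 0.05, beside 62 of 148 sites lower there.

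Htr2c A had the largest mean difference in control amygdala. In control prefrontal cortex it was edited at 34.7%, 64.6%, 54.5%, 84.0% and 80.3% in F1 and at 9.3% to 47.5%, median 35.5%, in F2 (difference -34.9 points, exact p = 0.0303). In PRS amygdala it was edited at 65.9% to 80.8%, median 75.6%, in F1 and at 80.9% to 85.6%, median 82.8%, in F2, so the F2 samples there were the higher ones and the sides did not overlap (difference 8.45 points, exact p = 0.00216). Htr2c B went the same way, by -36.3 points in prefrontal cortex (exact p = 0.00505) and by 6.17 points in PRS amygdala (exact p = 0.00866). Adarb1 11709485 had means of 14.3% and 10.1% in prefrontal cortex (exact p = 0.160) and of 12.2% and 17.9% in PRS amygdala (exact p = 0.0260). Averaged over the sites measured in all samples of a comparison, the editing level was 8.56% ± 0.737 (SD, n = 5) in F1 and 7.36% ± 0.681 (SD, n = 6) in F2 prefrontal cortex, without the same F2 sample (exact permutation p = 0.0303). In PRS amygdala it was 9.06% ± 0.262 (SD, n = 6) and 9.26% ± 0.614 (SD, n = 6) (exact permutation p = 0.504).

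**Figure D5:**
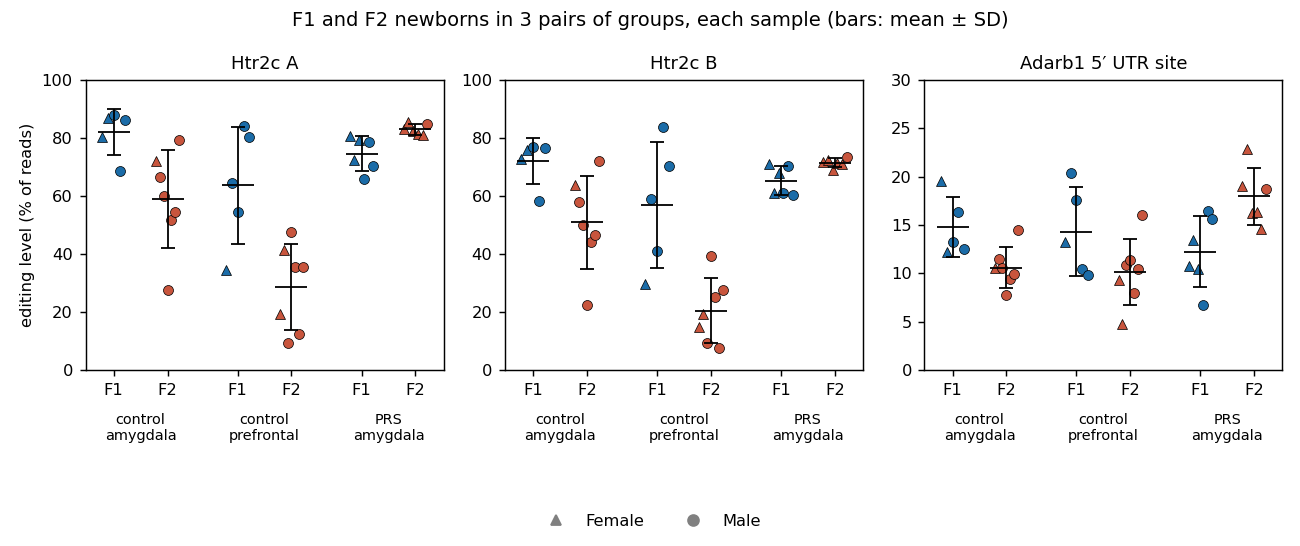
Editing level (% of reads) of Htr2c A, Htr2c B and the Adarb1 5′ UTR site at position 11709485 in F1 (blue) and F2 (red) newborns of 3 pairs of groups, with females as triangles, males as circles and the mean ± SD in black. At Htr2c A the F2 mean is below the F1 mean in control amygdala (58.9% and 82.0%) and control prefrontal cortex (28.7% and 63.6%) and above it in PRS amygdala (83.0% and 74.5%).

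The differences between these generation differences were tested with limma on logit levels. Between control amygdala and control prefrontal cortex 0 of 144 sites passed an FDR of 0.1 (0% called, smallest adjusted p = 0.886, 2 sites with an unadjusted p under 0.05). At Htr2c A the estimate, amygdala minus prefrontal cortex, was 0.490 on the logit scale with a 95% interval from -0.803 to 1.78. Between control and PRS amygdala 3 of 148 sites (2.03%) passed: Htr2c A with an estimate of -1.69 (95% interval -2.51 to -0.870, limma adjusted p = 0.0475), Adarb1 11709485 with -0.857 (-1.30 to -0.411, limma adjusted p = 0.0481) and Htr2c B with -1.22 (-1.94 to -0.499, limma adjusted p = 0.0990). Sex is unequal across these groups, since F2 holds 1 female of 7 in the control line and 5 of 6 in the PRS line. With males only, which leaves 1 F2 PRS sample, 0 sites passed (smallest adjusted p = 0.112), and without F1 sample 40 there were 6. The call at Htr2c B was lost when any 1 of F1 samples 46, 56 and 61 or F2 samples 138, 141 and 142 was left out. Htr2c A and Adarb1 11709485 passed whichever control amygdala sample was left out, but no PRS sample was left out in this way. F1 PRS sample 53 was the lowest of its group at Htr2c A (65.9%) and Adarb1 11709485 (6.70%), though not at Htr2c B (61.1%). That sample also stood apart elsewhere, at 0.2% in Kcna1 and 39.3% in Grik2 Y/C, against group medians of 4.80% and 69.7%. Whether the calls rest on sample 53 was not tested.

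The read share of the sites, a second readout of the same libraries, differed more often than the editing level. Of 148 sites 29 (19.6%) passed an FDR of 0.1, 22 of them with a larger share in F2, and 43 (29.1%) had an unadjusted p under 0.05 (exact Mann-Whitney test). The 3 Blcap sites took smaller shares in F2. The count of 29 depended on single samples and was 10 to 48 when each was left out in turn, 48 without F1 sample 40 and 45 without F2 sample 145. Without any 1 of F1 samples 56, 59 and 61 or of the other 6 F2 samples it was 10 to 11, and without F1 sample 46 it was 20. Amplicons with several sites count more than once in these numbers.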

How the data were processed

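The 12 newborn control amygdala samples were measured with mmPCR-seq. The authors mapped the combined paired-end reads with BWA to rn4 and deposited, for each of 179 sites, counts (all reads at the site, and reads with G there) and their ratio, a fraction given to 3 decimals. SAMtools is also named in the submitters' processing notes. Per the file headers no minimum is set, and a minimum of 50 reads was applied here. Mapping to 1 reference sequence can lower or raise a level where a sample carries a genomic difference at the site. Levels are shown as a percent. The study's list puts 1 site of Gtf3c2 on another chromosome than the files do, and it was matched by position.

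Samples were grouped by tissue, age, generation and treatment labels. Sides were compared site by site with the two-sided Mann-Whitney test in its exact form over all 792 splits, with Benjamini-Hochberg adjustment over the 148 tested sites and an FDR of 0.1. Intervals of the shift are Hodges-Lehmann intervals from the exact rank distribution. Mean levels were compared by two-sided exact permutation. Differences between generation differences were fitted with limma 3.58.1 (R 4.3.3) on the logit of levels held at least 0.1 points from 0% and 100%, with samples of all 4 groups in the fit. The read share is the log2 of reads at a site plus 1 over the sample's reads at all listed sites. Python 3.11.15, numpy 2.4.6, scipy 1.17.1 and pandas 2.3.3 were used, and the steps were tested on simulated data.

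The 45 named sites were those past the FDR, of which there were none, a fixed list, and 12 sites outside it with an unadjusted p under 0.05. The list held 33 sites in receptors, channels, filamins, editing targets and growth factors, named whatever their result. The comparison, its groups of sites and this list were chosen with earlier results of these data known. Alternatives were the adjustment, test, read minimum, level filter, sex, library-number set and each control amygdala sample left out. The study's genome sequence around the sites was not used here. Results for some sites are not reported here.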

Additional observations from a re-analysis of the deposited data

Results flagged for a closer look

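Single samples stood apart from the rest of their side at several of the 45 named sites. A sample was picked out where its gap to the nearest sample was large against the range of its side (Dixon's ratio), in 16 of the 89 sets of levels tested. The threshold picks out about 1 in 20 by chance among independent, normally spread sets. Here some sites share an amplicon, levels are rounded and some sites were named after their values were seen, so the count cannot be set against that rate. F1 sample 40 accounted for 8 of the 16, as the low value of Grik2 Q/R (83.7%), Gria3 R/G (61.4%), Gria4 R/G (28.3%), Grik1 (22.5%), Grik2 G (3.20%) and Ankrd28 7168469 (0.800%), and as the high value of Blcap 148267329 (3.3%) and Blcap 148267359 (33.3%).

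F2 sample 145 was high at Blcap 148267329 (92.4%, against 0.3% to 3.1% in the other F2 samples) and Blcap 148267359 (7.10%). F2 sample 140 was low at Htr2c C (7.80%), F2 sample 138 was high at Ankrd28 7168469 (1.30%), and F2 sample 141 was high at Cdh22 (1.20%). In F1, sample 59 was low at Htr2c B (58.3%), sample 46 was high at Adarb1 11709486 (74.1%), and sample 56 was high at Cdh22 (9.5%).

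The generation difference in control amygdala differed from that in PRS amygdala at 3 sites in the limma interaction test, with logit estimates of -1.69 at Htr2c A, -1.22 at Htr2c B and -0.857 at Adarb1 11709485.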

How the results depend on the processing

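The number of sites past the FDR was 0 with the 146 sites alone, a permutation test of means, pooled reads, minimums of 200 reads or 1 read, sites measured in all samples, a level of at least 1%, males only, labels permuted within sex, FDR 0.05, unrounded levels, and limma without or with the library-number set as a random block (smallest adjusted p = 0.163 and 0.340, consensus correlation 0.0867). It was 6 with nonsynonymous sites adjusted separately. With each sample left out it was 0 to 10, the 10 without F1 sample 40. The number of sites with an unadjusted p under 0.05, 23, was 18 to 25 under the other settings and 15 to 26 with each sample left out, 15 without F1 sample 56 or 59. Of the 23 sites, 12 kept an unadjusted p under 0.05 whichever sample was left out. The 6 nonsynonymous sites adjusted apart became 0 with pooled reads, males only, labels permuted within sex or FDR 0.05, and 0 to 11 with each sample left out.

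The difference in mean level was -1.47 in males only (exact permutation p = 0.0595) and -0.246 for the median over sites (exact permutation p = 0.0543). It stayed past 0.05 otherwise, and was -1.56 to -1.14 with each sample left out. The interaction with prefrontal cortex gave 1 site with males only (Gria4 L) and 0 in every other fit run. Those fits left out each control amygdala sample in turn (0 to 0) and the prefrontal sample under coverage, but no other prefrontal sample. The interaction with PRS amygdala gave 3 to 4 sites under the settings that kept both sexes and 2 to 6 with each control amygdala sample left out. No PRS sample was left out in turn. The read share count was 26 over the 146 sites, 23 by permutation of means, 39 in males only and 10 to 48 with each sample left out. The cause of these changes was not tested.

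Differences of 9 named sites, none with an unadjusted p under 0.05, changed sign. With pooled reads these were Cacna1d 5405832 (-0.835), Cacna1d 5405840 (-0.715) and Kcnma1 (-0.0470), and with males only Blcap 148267359 (1.45), Kcna1 (0.05) and Kcnma1 (-0.0667). Kcnma1 also did so on the logit scale (-0.0170, and -0.0190 with the random block). With each sample left out the lowest and highest differences were -6.81 and 1.04 at Blcap 148267359 (positive without F1 sample 40), -0.00333 and 15.3 at Blcap 148267329 (negative without F2 sample 145), -0.482 and 0.743 at Cacna1d 5405832, -0.789 and 0.0857 at Flna, -0.550 and 3.9 at Gabra3, -2.70 and 0.829 at Grik2 Y/C, -0.554 and 0.171 at Kcna1, and -0.0400 and 0.493 at Kcnma1. No paired analysis was possible because the labels give no dam or litter that would link a sample of one side to a sample of the other. With 5 samples against 7 and no ties, the exact Mann-Whitney test cannot go below p = 0.00253. The permutation tests are not bound by this limit. In males only the limit of the exact Mann-Whitney test without ties is p = 0.0238. The males-only counts of 0 past the FDR therefore cannot show whether the site results depend on sex.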
